A study of Mus musculus with 6 samples.

Results

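The proteasome is the barrel-shaped protease that degrades ubiquitin-tagged proteins in the cytosol and nucleus. Its genes were read here across 6 Illumina bead arrays of mouse megakaryocyte progenitors with and without serum response factor (SRF). The members were all genes whose symbol in the platform annotation is Psm, then a letter from a to g, then a number, which gave 45 genes seen by 62 probes, out of 15967 genes with a probe. For a gene with several probes, the one brightest on average over the 6 arrays on the log2 scale stood for it. The listed symbols Psma8, Psmd1 and Psmg2 were not analysed here. Each member matched the mouse gene table of assembly GRCm38.p6 by the gene identifier in the platform annotation. All 45 are proteasome subunits, caps, inhibitors or assembly factors.

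The KO group comprised 3 arrays (replicates 1 to 3) of C57BL/6 progenitors labelled SRF knockout, in which Cre recombinase driven by the Pf4 promoter, active in the megakaryocyte lineage, was used to delete Srf. The WT group comprised 3 arrays of C57BL/6 progenitors labelled SRF wild-type. In both, lineage-depleted marrow spent a night with stem cell factor and thrombopoietin, was sorted as CD41+ c-kit+ cells, and then grew in thrombopoietin alone over 3 days. The labels do not say whether the WT animals carried Cre, which part of Srf was deleted, or which mouse gave which array, so p-values measure only the spread between these samples. Srf itself had log2 intensities of 7.35, 7.56 and 7.20 in the KO arrays and 12.31, 11.89 and 11.98 in the WT arrays, a difference of -4.69 (SE 0.17, adjusted p = 5.4e-05).

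The arrays detected 9801 to 10364 probes each, and 8 of 10 listed megakaryocyte markers had a probe and were detected on all 6 arrays. Their mean was 13.26, 13.08 and 13.04 in the KO, against 13.09, 12.83 and 12.76 in the WT, lowest in WT replicates 2 and 3. By mean, 7 of 8 were higher in the KO, against 49% of all tested genes, and 0 passed the test. The other, Ppbp, lay at -0.82 (SE 0.17, adjusted p = 0.25), with all KO arrays below all WT arrays, as for 9.46% of all tested genes. All KO arrays lay above all WT arrays for Itga2b, Pf4, Gp1bb and Gp5, as for 8.68% of all tested genes. For Itgb3, Gp9 and Vwf the groups overlapped. Transcripts of other blood cells differed within both groups. The mean of 12 mast cell and basophil markers was 6.36, 6.15 and 6.42 in KO replicates 1 to 3, against 6.03, 8.25 and 8.28 in WT replicates 1 to 3. Of those 12, the arrays detected 3, 4 and 4 in the KO, against 2, 8 and 7 in the WT, and 4 were detected on no array (Tpsb2, Tpsab1, Cma1 and Mcpt4). The mean of 12 granulocyte markers was 9.82, 6.80 and 7.37 in the KO, against 6.95, 9.37 and 9.55 in the WT. Of those, 11, 8 and 10 were detected in the KO, against 9, 10 and 10 in the WT, and 1 was detected on no array. The mean of 6 monocyte and macrophage markers was 8.21, 7.23 and 7.42 in the KO, against 7.13, 8.34 and 8.49 in the WT. Of those, 3, 3 and 3 were detected in the KO, against 3, 4 and 4 in the WT, and 2 on no array. The mean of 8 erythroid markers was 5.94, 5.87 and 6.06 in the KO, against 5.80, 6.83 and 6.87 in the WT. Of those, 2, 3 and 2 were detected in the KO, against 2, 3 and 3 in the WT, and 4 on no array. WT replicates 2 and 3 were thus highest in mast cell and basophil, monocyte and erythroid marker means. Genes within the monocyte and erythroid lists differed. Adgre1, Ly6c1, Klf1 and Car1 were highest in those 2 arrays, but Mrc1 (8.64 and 8.12) and Epor (8.23 and 7.98) were lowest there. KO replicate 1 was highest in the granulocyte mean, followed by WT replicates 3 and 2. Mpo, Elane, Prtn3 and Ctsg were highest in WT replicates 2 and 3, whereas Camp, Ngp, Ltf, Lcn2, S100a8 and S100a9 were highest in KO replicate 1. The lymphocyte mean lay between 5.97 and 6.48 over the 6 arrays, also highest in WT replicates 2 and 3, and the stromal mean between 5.72 and 6.00. Of the 7 lymphocyte markers, 4 were detected on no array, and of the 8 stromal and endothelial markers, 7, all but Pecam1. Both means thus rest mostly on values near background. In such mixed samples, fewer cells of a type and less RNA per cell cannot be told apart.

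As background, the core particle stacks alpha rings, built from Psma products, around beta rings, built from Psmb products, whose catalytic subunits face an inner chamber. A regulatory particle with a base of Psmc ATPases and a lid of Psmd subunits recognises ubiquitin chains, removes them and threads the substrate in. In immune cells and under interferon, the catalytic subunits are exchanged for Psmb8, Psmb9 and Psmb10, which form the immunoproteasome and favour peptides for presentation by class I molecules. Proteasome activity is required for platelet production, and proteasome inhibitors used in the clinic lower platelet counts.

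No proteasome gene passed the test between KO and WT. Of the 45 genes, 42 were tested, and limma's linear model called 0 of them at an adjusted p under 0.05, against 0.16% of 6864 tested genes (0.0291% higher and 0.131% lower in the KO). The 42 adjusted p-values ran from 0.29 for Psmd2 to 0.96 for Psma2. At an unadjusted p under 0.05 there were 2 members, Psmd2 and Psmd9, which is 4.76% of the members, against 12.8% of all tested genes. Both were higher in the KO, a direction that held 6.59% of all tested genes, and 0 members were lower, against 6.25%. With weights estimated for each array, which gave WT replicate 2 a weight of 5.91 and the others 0.32 to 1.48, 8 members passed, but so did 1955 of 9403 probes instead of 15. Without WT replicate 1, 3 members passed (Psmb9, Psmd2 and Psmd6), with 839 probes in all.

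**Figure D1:**
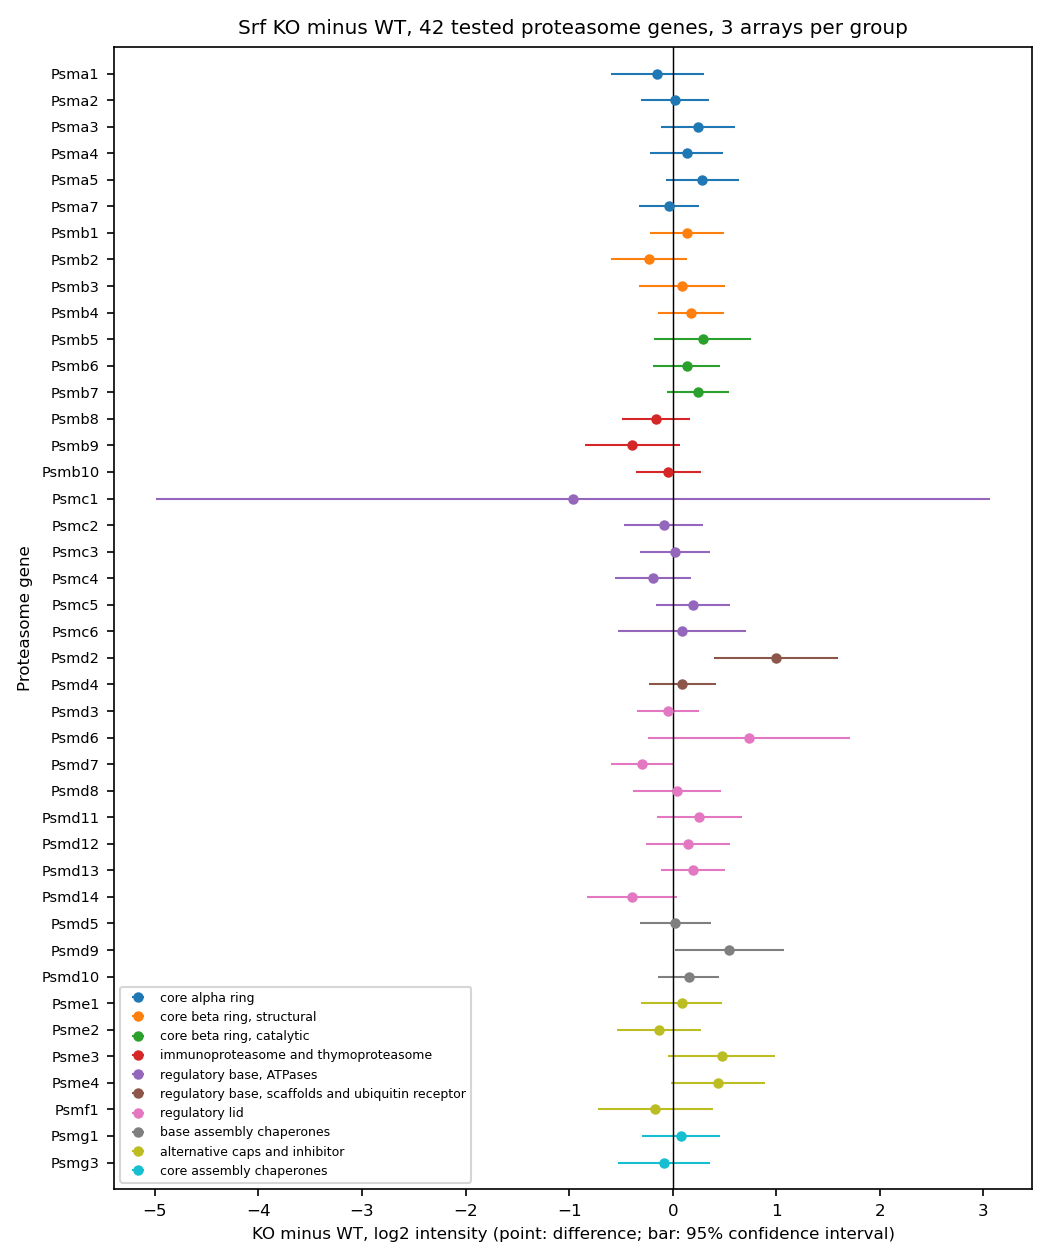
KO minus WT difference in log2 intensity (horizontal axis) for the 42 tested proteasome genes (vertical axis), coloured by role, as points with 95% confidence intervals from limma (3 arrays per group). Most intervals cross 0, those of Psmd2 and Psmd9 do not before adjustment, and the interval of Psmc1 runs from -4.99 to 3.07.

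Most differences were small on the log2 scale. The 95% confidence interval of the difference lay between -1 and 1 for 38 of 42 members and between -0.5 and 0.5 for 17, so a 2-fold change in either direction lay outside the unadjusted interval for those 38. The other 4 were Psmc1, Psmd2, Psmd6 and Psmd9. The median size of the difference was 0.16 over the members and 0.19 over all tested genes. The median SD within groups was 0.18 for the members and 0.22 for all tested genes. The difference was under 0.3 in size for 34 of 42 members (81%), against 68.3% of all tested genes. The median difference was +0.09 over the members and -0.01 over all tested genes, with 27 members higher by mean in the KO (64.3%) against 49% of all tested genes. Without WT replicates 2 and 3, 20 of 42 members (47.6%) were higher by mean, against 45.8% of all tested genes, and the median difference was -0.0012 over the members and -0.024 over all tested genes. With the mean of the 3 tested mast cell and basophil markers (Cpa3, Mcpt8 and Gata2) in the model, 23 of 42 (54.8%) were higher, against 48.1% of all tested genes, and the medians were +0.042 and -0.011. What sets WT replicates 2 and 3 apart for the members was not tested.

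**Figure D2:**
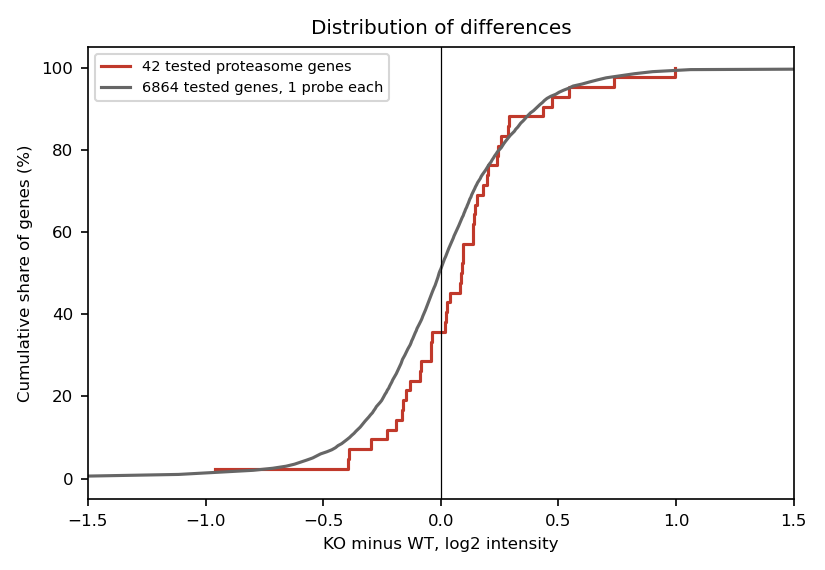
Cumulative share of genes (percent, vertical axis) with a KO minus WT difference in log2 intensity up to the value on the horizontal axis, for the 42 tested proteasome genes (stepped line) and all 6864 tested genes with 1 probe each (smooth line). The horizontal axis ends at -1.5 and 1.5. The members' line lies to the right of the other around 0, with medians of +0.09 and -0.01.

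Array by array, the members' median deviation from their own 6-array mean was 0.04, 0.04 and -0.0035 in KO replicates 1 to 3. It was 0.03, -0.08 and -0.05 in WT replicates 1 to 3. WT replicate 2 had only 11 of 42 members above their mean, against 19 to 26 in the other 5 arrays. Both WT replicate 2 and WT replicate 3 lay below the other 4 arrays for 16 members (38.1%, against 20.7% of all tested genes) and above them for 5 (11.9%, against 20%).

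**Figure D3:**
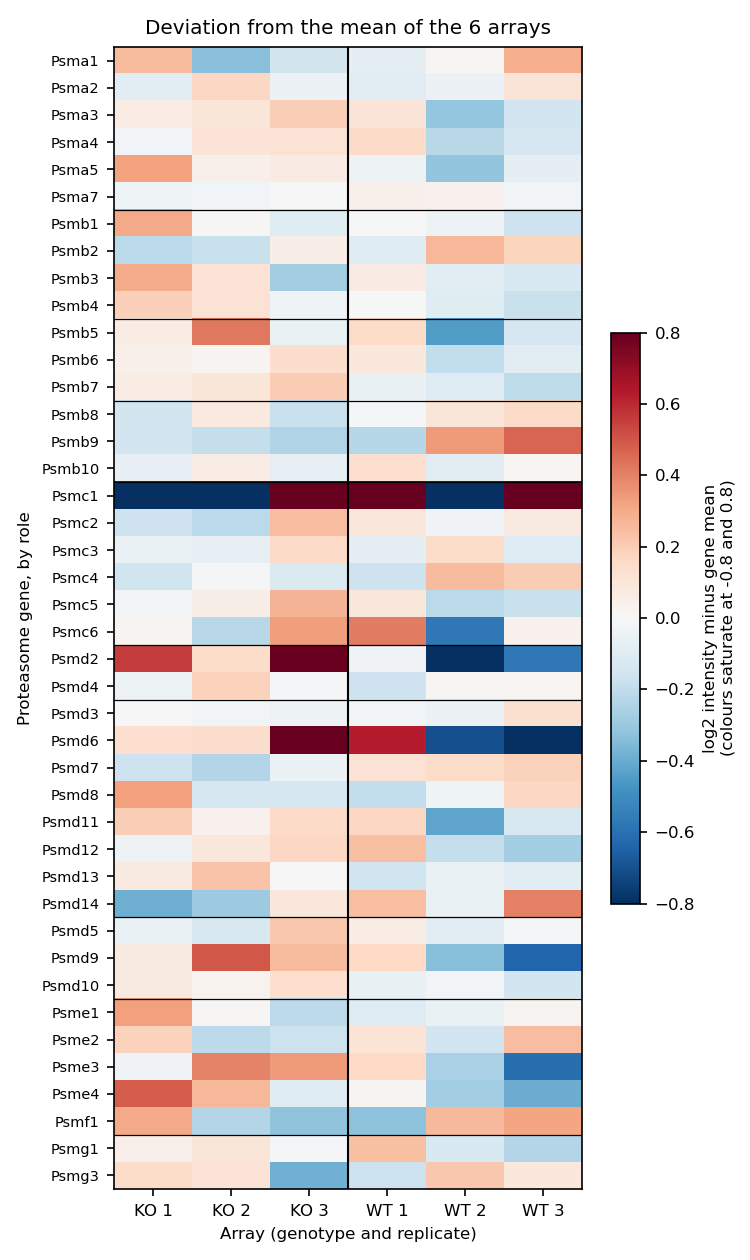
Log2 intensity minus the gene's mean over 6 arrays (colour, saturating at -0.8 and 0.8) for the 42 tested proteasome genes (vertical axis, ordered by role, with lines between roles) in the 3 KO and 3 WT arrays (horizontal axis). WT replicate 2 is the bluest column, with 11 of 42 members above their mean, and Psmc1 changes colour within both groups.

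The KO and WT arrays did not overlap for 6 members, which is 14.3% of the members, against 18.1% of all tested genes. Of these, 5 were higher in the KO (11.9%, against 8.68%) and 1 was lower (2.38%, against 9.46%). They were Psma5, Psmb7, Psmd2, Psmd10 and Psmd13 on the higher side and Psmd7 on the lower side. Of the 16 members with several probes, 11 had at least 2 tested probes, and in 3 of those the probes differed in sign. None of the 54 tested member probes passed.

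In the alpha ring, which gates entry to the core, 6 of 7 genes were tested, with 4 higher by mean, 2 lower and differences from -0.15 (Psma1) to +0.29 (Psma5). Psma5 had 6.70, 6.42 and 6.44 in the KO, against 6.33, 6.06 and 6.31 in the WT, a gap between the groups at dim levels, with a difference of +0.29 (SE 0.15, adjusted p = 0.42). Psma3, among the brightest member probes, had 14.20, 14.23 and 14.33 in the KO arrays and 14.24, 13.82 and 13.98 in the WT arrays. Only WT replicates 2 and 3 lay apart there, below the other 4 arrays, and the difference was +0.24 (SE 0.15, adjusted p = 0.48). Psma4 had 13.39, 13.52 and 13.52 in the KO, against 13.56, 13.18 and 13.27 in the WT, with the same array order at the low end and a difference of +0.14 (SE 0.15, adjusted p = 0.70). Psma7 was the steadiest, at 12.75, 12.76 and 12.78 in the KO arrays and 12.83, 12.82 and 12.76 in the WT arrays, and its interval ran from -0.32 to 0.25. Psma1 (-0.15) and Psma2 (+0.02) lay within their spread, and the probe for Psma6 was detected on no array and was not tested.

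In the structural part of the beta ring 3 of 4 genes were higher by mean and 1 was lower, and 0 passed. Psmb2 had 13.09, 13.13 and 13.36 in the KO, against 13.21, 13.57 and 13.49 in the WT, so that only WT replicates 2 and 3 were above all KO arrays, and the difference was -0.23 (SE 0.16, adjusted p = 0.51). Its second probe gave -0.35 (SE 0.16, adjusted p = 0.38), with all KO arrays below all WT arrays. Psmb4 had 14.52, 14.44 and 14.29 in the KO arrays and 14.33, 14.23 and 14.15 in the WT arrays, with overlapping groups and a difference of +0.18 (SE 0.14, adjusted p = 0.55). Psmb1 had 13.04, 12.75 and 12.64 in the KO, against 12.74, 12.70 and 12.57 in the WT, with KO replicate 3 inside the WT range and a difference of +0.14 (SE 0.15, adjusted p = 0.69). Psmb3 lay at +0.09.

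The 3 constitutive catalytic subunits were each higher by mean in the KO and the 3 detected immunoproteasome subunits each lower, and none of the 6 passed. Without WT replicates 2 and 3, Psmb5 (-0.0023), Psmb6 (-0.015) and Psmb9 (+0.03) changed sign. Psmb7 (+0.17), Psmb8 (-0.07) and Psmb10 (-0.15) kept theirs. Psmb7, the trypsin-like subunit, had 13.23, 13.27 and 13.38 in the KO, against 13.11, 13.07 and 12.97 in the WT, with the groups apart and a difference of +0.24 (SE 0.13, adjusted p = 0.42). Its second probe ranged from 13.22 to 13.31 in the KO and from 12.70 to 13.07 in the WT, with a difference of +0.41 (SE 0.15, adjusted p = 0.33). Psmb5, the chymotrypsin-like subunit and the main target of bortezomib, had 12.72, 13.08 and 12.61 in the KO arrays and 12.81, 12.21 and 12.52 in the WT arrays. Its groups overlapped, WT replicate 2 was lowest, and the difference was +0.29 (SE 0.20, adjusted p = 0.52). Psmb6, the caspase-like subunit, had 13.69, 13.66 and 13.79 in the KO, against 13.73, 13.45 and 13.55 in the WT, with WT replicate 1 among the KO values and a difference of +0.14 (SE 0.14, adjusted p = 0.67).

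Psmb9 was the most variable of the immunoproteasome subunits, and its variation lay within the WT group. It had 10.01, 9.97 and 9.92 in the KO arrays and 9.93, 10.50 and 10.63 in the WT arrays. WT replicates 2 and 3 stood above the other 4 arrays, while WT replicate 1 lay within the KO range. The difference was -0.39 (SE 0.20, adjusted p = 0.41), and it was -0.60 (adjusted p = 0.048) without WT replicate 1, +0.03 without WT replicates 2 and 3, and -0.08 with the mast cell and basophil marker mean in the model. The part of other cell types in the level of Psmb9 was not tested.

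Psmb9 and Tap1, a subunit of the transporter that carries peptides into the endoplasmic reticulum, face away from each other on chromosome 17, and 225 of the 250 bases upstream of each start are shared. The upstream window of Psmb9 is printed because both transcripts start beside it and their levels followed different arrays. It spans chr17:34187331-34187580 of GRCm38.p6 on the minus strand (RefSeq, written 5′ to 3′ towards the start), with matches to TGANNNNGC and CCAAT (read on the other strand as ATTGG) in capitals.
Psmb9 upstream: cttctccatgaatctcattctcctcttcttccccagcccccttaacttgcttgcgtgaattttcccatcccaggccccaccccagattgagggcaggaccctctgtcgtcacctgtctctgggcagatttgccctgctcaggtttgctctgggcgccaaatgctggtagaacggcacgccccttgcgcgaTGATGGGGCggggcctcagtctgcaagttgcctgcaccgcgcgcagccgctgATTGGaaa
Tap1 had 8.36, 8.28 and 8.29 in the KO arrays and 8.19, 8.28 and 7.998 in the WT arrays, so the 2 WT arrays with the most Psmb9 were not high for Tap1, whose difference was +0.15 (SE 0.14, adjusted p = 0.62). Tap2, the other transporter subunit, had 10.31, 10.25 and 10.22 in the KO arrays and 9.92, 10.91 and 11.10 in the WT arrays, with the same 2 WT arrays highest and a difference of -0.38 (SE 0.29, adjusted p = 0.55).

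Psmb8 varied less, with 8.02, 8.25 and 7.99 in the KO, against 8.16, 8.27 and 8.32 in the WT. The groups overlapped and the difference was -0.16 (SE 0.14, adjusted p = 0.60). Psmb10 had 10.72, 10.85 and 10.72 in the KO arrays and 10.92, 10.70 and 10.80 in the WT arrays, with a difference of -0.04 (SE 0.13, adjusted p = 0.91) and an interval from -0.36 to 0.27. Its second probe ranged from 10.49 to 10.67 in the KO and from 10.77 to 10.87 in the WT, and gave -0.22 (SE 0.13, adjusted p = 0.46). Psmb11, the thymus-specific catalytic subunit, had 5.69, 6.42 and 5.61 in the KO, against 5.95, 5.89 and 6.23 in the WT, and was detected on 1 KO and 1 WT array, so it was not tested.

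Set against its constitutive counterpart within each array, the change of each immunoproteasome subunit was the lower of the pair. Centred on each pair's mean over the 6 arrays, Psmb8 minus Psmb5 was -0.21, -0.35 and -0.12 in the KO, against -0.16, 0.55 and 0.29 in the WT. Psmb9 minus Psmb6 was -0.19, -0.21 and -0.38 in the KO, against -0.31, 0.54 and 0.56 in the WT. For both pairs WT replicate 1 lay inside the KO range and only WT replicates 2 and 3 lay above it. Psmb10 minus Psmb7 was -0.13, -0.034 and -0.27 in the KO, against 0.20, 0.016 and 0.22 in the WT, with no overlap. Of single tested genes 18.1% had no overlap, and the share for pairs of genes was not computed. By the probes used here, Psmb7 alone separated the groups and Psmb10 alone did not. The Psmb8 difference was 0.45 below that of Psmb5 (a difference of changes of -0.45), and the value was -0.53 for Psmb9 with Psmb6 and -0.29 for Psmb10 with Psmb7. Exact two-sided permutation tests over the 6 arrays gave p = 0.2, 0.3 and 0.1 in that order, each 0.3 after Benjamini-Hochberg adjustment over the 3 pairs. With 3 arrays against 3 the smallest possible p is 0.1, so no pair could pass.

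**Figure D4:**
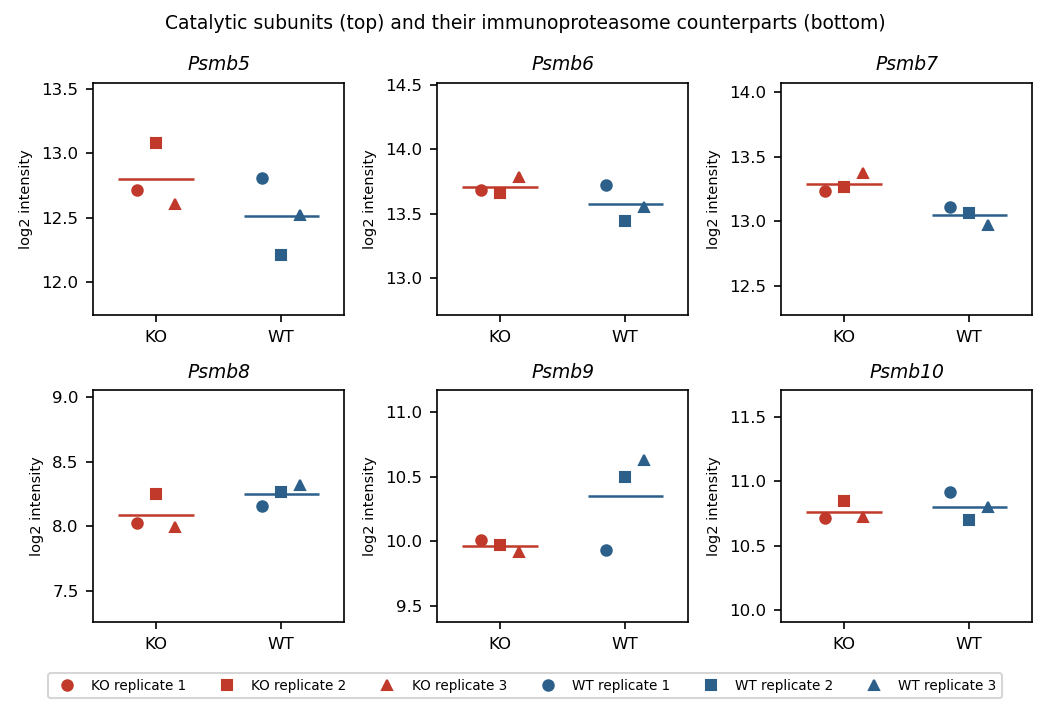
Log2 intensity (vertical axis, scaled separately in each panel) of the 3 constitutive catalytic subunits (top) and 3 immunoproteasome subunits (bottom) in KO (left) and WT (right), with a symbol per replicate and a bar at the group mean. Psmb7 separates the groups, and for Psmb9 WT replicates 2 and 3 (10.50 and 10.63) stand above the other 4 arrays.

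The ATPases of the base unfold substrates and push them into the core. Of 6 tested, 3 were higher by mean, 3 lower and 0 passed. Psmc5 had 12.89, 12.96 and 13.18 in the KO, against 13.01, 12.70 and 12.74 in the WT, with a difference of +0.20 (SE 0.15, adjusted p = 0.56), and its second probe gave +0.25. Only WT replicates 2 and 3 lay below the KO arrays. Psmc4 had 12.79, 12.93 and 12.83 in the KO arrays and 12.78, 13.20 and 13.15 in the WT arrays. There WT replicates 2 and 3 lay above the other arrays, and the Psmc4 difference was -0.19 (SE 0.16, adjusted p = 0.58). Its second, dimmer probe gave -0.33 (SE 0.17, adjusted p = 0.41), with all KO arrays below all WT arrays. Psmc2 (-0.09), Psmc3 (+0.02) and Psmc6 (+0.09) lay within their spread.

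Psmc1, the remaining ATPase, split the arrays without regard to genotype. Its probe had 6.20, 6.66 and 10.88 in the KO arrays and 10.99, 5.12 and 10.51 in the WT arrays. KO replicate 3 and WT replicates 1 and 3 were high, whereas KO replicates 1 and 2 and WT replicate 2 were low. The lowest of the high arrays exceeded the highest of the low arrays by 3.86 on the log2 scale, or 14.5-fold. The raw intensities behind these were 216, 298 and 2436 in the KO arrays and 2239, 150 and 1261 in the WT arrays, and the detection p-value was 0.63 on WT replicate 2, which was not above background. The authors' processed values showed the same split, at 8.35, 8.45 and 10.87 in the KO and 10.97, 8.08 and 10.55 in the WT.

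The SD of Psmc1 within groups was 2.94, the fifth widest of 9403 tested probes, and the 4 wider probes were for Mpo, Elane and Ctsg, all granulocyte genes. The next member, Psmd6, had an SD within groups of 0.68. The number of beads behind the Psmc1 value was 16, 17 and 31 in the KO arrays and 44, 18 and 25 in the WT arrays, so the 3 low arrays had the fewest beads. The part of bead number or of other cell types in the split was not tested. Psmc1 has a single probe, and the difference of -0.96 had an SE of 1.73 (adjusted p = 0.82) and ranged from -3.09 without WT replicates 2 and 3 to +2.14 with array weights.

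Psmd2, a scaffold of the base that receives ubiquitin-like shuttle factors, has a single probe. Under the main processing it had the largest difference of any member and the smallest p. It had 8.53, 8.11 and 8.76 in the KO arrays and 7.94, 7.07 and 7.39 in the WT arrays. The KO arrays all lay above the WT arrays, with WT replicate 1 nearest to them. The difference was +1.00 (SE 0.26, adjusted p = 0.29), or 2.00-fold by mean, with an interval from 0.40 to 1.60 before adjustment. It was +0.60 without background correction (adjusted p = 0.29) and +0.43 on the authors' processed values (adjusted p = 0.32). Psmc1 was larger in size under both (-0.75 and -0.65), and so was Psmd6 on the authors' values (+0.44). Psmd2 passed in 2 of 18 alternatives, at +1.23 (adjusted p = 0.024) without WT replicate 1 and +1.26 (adjusted p = 0.013) with array weights. The Psmd2 difference was +0.52 without WT replicates 2 and 3, where only 1 WT array remains. It was +0.69 (adjusted p = 0.74) with the mast cell and basophil marker mean in the model.

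The 250 bases upstream of Psmd2 are printed because it is the member with the largest difference under the main processing. They span chr16:20651402-20651651 of GRCm38.p6 on the plus strand (RefSeq), and none of the 4 motifs searched occurs there, so no letter is in capitals.
Psmd2 upstream: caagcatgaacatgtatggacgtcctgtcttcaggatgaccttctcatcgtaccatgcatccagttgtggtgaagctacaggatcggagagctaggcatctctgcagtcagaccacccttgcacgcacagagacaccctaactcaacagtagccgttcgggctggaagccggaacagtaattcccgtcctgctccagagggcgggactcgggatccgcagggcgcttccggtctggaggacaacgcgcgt
The motifs were searched on both strands and were free to overlap. They were the CArG box (the sequence SRF binds), TGANNNNGC, the interferon-stimulated response element (GAAA, any 2 bases, GAAA) and CCAAT. TGANNNNGC is a loose pattern for the core of the antioxidant response element, which Nfe2l1 and Nfe2l2 bind. Of 42 upstream windows of 39 member genes, 1 held a CArG box (2.38%), against 1.47% of 32851 windows of all genes. That window belongs to Psma6, whose probe was not detected. TGANNNNGC occurred in 16 of 42 (38.1%, against 35.2% of all windows), the interferon-stimulated response element in 3 (Psmb3, Psmd4 and Psmd9; 7.14%, against 2.98%) and CCAAT in 14 (33.3%, against 33.8%). Psmd4, the ubiquitin receptor of the base, had 13.09, 13.31 and 13.12 in the KO, against 12.96, 13.14 and 13.14 in the WT, with overlapping groups and a difference of +0.09 (SE 0.14, adjusted p = 0.77).

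The lid strips ubiquitin from the substrate. Of its 8 tested genes 5 were higher by mean, 3 were lower and 0 passed. Psmd7, the partner of the deubiquitinase, had 12.75, 12.68 and 12.87 in the KO arrays and 13.02, 13.06 and 13.10 in the WT arrays. By the probe standing for each gene, it was the only member with all KO arrays below all WT arrays. Among tested second probes, those of Psmb2, Psmb10 and Psmc4 also had all KO arrays below all WT arrays, and that of Psmb7 had them above. With 1 probe per gene, 9.46% of all tested genes lay lower without overlap and 8.68% higher. The Psmd7 difference was -0.30 (SE 0.13, adjusted p = 0.37). A second Psmd7 probe, at 11.66, 11.84 and 12.37 in the KO and 12.10, 11.50 and 11.85 in the WT, gave +0.14 (SE 0.23) with overlapping groups. Psmd14, the deubiquitinase itself, had 11.28, 11.38 and 11.76 in the KO, against 11.91, 11.62 and 12.07 in the WT, with KO replicate 3 inside the WT range and a difference of -0.39 (SE 0.19, adjusted p = 0.39).

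Psmd6 had 9.29, 9.30 and 9.99 in the KO arrays and 9.79, 8.46 and 8.13 in the WT arrays, so WT replicate 1 lay with the KO arrays and the other 2 WT arrays lay below. Its difference was +0.74 (SE 0.42, adjusted p = 0.44), and it was +1.23 (adjusted p = 0.033) without WT replicate 1 but -0.26 without WT replicates 2 and 3. On the authors' processed values it was +0.44. A second, dimmer Psmd6 probe gave +0.03 (SE 0.18). Psmd13 had 13.38, 13.54 and 13.30 in the KO, against 13.15, 13.25 and 13.22 in the WT, with the groups apart by a narrow gap and a difference of +0.20 (SE 0.13, adjusted p = 0.50). Its second probe gave +0.25 (SE 0.19) with overlapping groups. Psmd11 (+0.26), Psmd12 (+0.15), Psmd8 (+0.04) and Psmd3 (-0.04) had overlapping groups. Psmd3 had the lowest SD within the KO group after Psma7, at 13.89 ± 0.02 against 13.93 ± 0.10 in the WT (SD, n = 3 each).

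Of the chaperones that assemble the base, Psmd9 had 8.59, 9.02 and 8.77 in the KO, against 8.68, 8.18 and 7.88 in the WT. WT replicate 1 lay inside the KO range, and the difference was +0.54 (SE 0.23, adjusted p = 0.35). It was +0.11 without WT replicates 2 and 3 and +0.28 on the authors' processed values, and a second probe gave +0.01 (SE 0.19). Psmd10, also known as gankyrin, had 10.69, 10.64 and 10.75 in the KO arrays and 10.56, 10.60 and 10.47 in the WT arrays, a small gap between groups that do not overlap, with a difference of +0.15 (SE 0.13, adjusted p = 0.59). Its other 2 probes gave -0.01 and +0.07. Psmd5 had 8.51, 8.44 and 8.79 in the KO, against 8.63, 8.48 and 8.56 in the WT, with a difference of +0.02 (SE 0.15, adjusted p = 0.96).

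The caps Psme3 and Psme4, nuclear activators that open the core without ubiquitin, had larger differences than the interferon-linked caps Psme1 and Psme2. Psme3 had 12.56, 12.99 and 12.93 in the KO arrays and 12.75, 12.33 and 11.99 in the WT arrays, with WT replicate 1 inside the KO range and a difference of +0.47 (SE 0.22, adjusted p = 0.39). Psme4 had 11.42, 11.20 and 10.83 in the KO, against 10.95, 10.66 and 10.54 in the WT, with WT replicate 1 above KO replicate 3, and a difference of +0.43 (SE 0.20, adjusted p = 0.38). Without WT replicates 2 and 3 these were +0.08 and +0.20. Whether the 2 pairs of caps differ from each other was not tested.

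Psme1 had 12.72, 12.40 and 12.18 in the KO arrays and 12.29, 12.34 and 12.41 in the WT arrays, with a difference of +0.09 (SE 0.17, adjusted p = 0.83), and its second probe gave -0.06. Psme2 had 10.04, 9.65 and 9.69 in the KO, against 9.97, 9.71 and 10.11 in the WT, with a difference of -0.13 (SE 0.17, adjusted p = 0.74) and overlapping groups. Psmf1, an inhibitor of the core, had 11.82, 11.28 and 11.19 in the KO arrays and 11.18, 11.77 and 11.83 in the WT arrays. KO replicate 1 and WT replicates 2 and 3, the 3 arrays with the highest granulocyte marker mean, were the high ones. The Psmf1 difference was -0.17 (SE 0.24, adjusted p = 0.76). The part of granulocyte transcripts in that pattern was not tested.

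**Figure D5:**
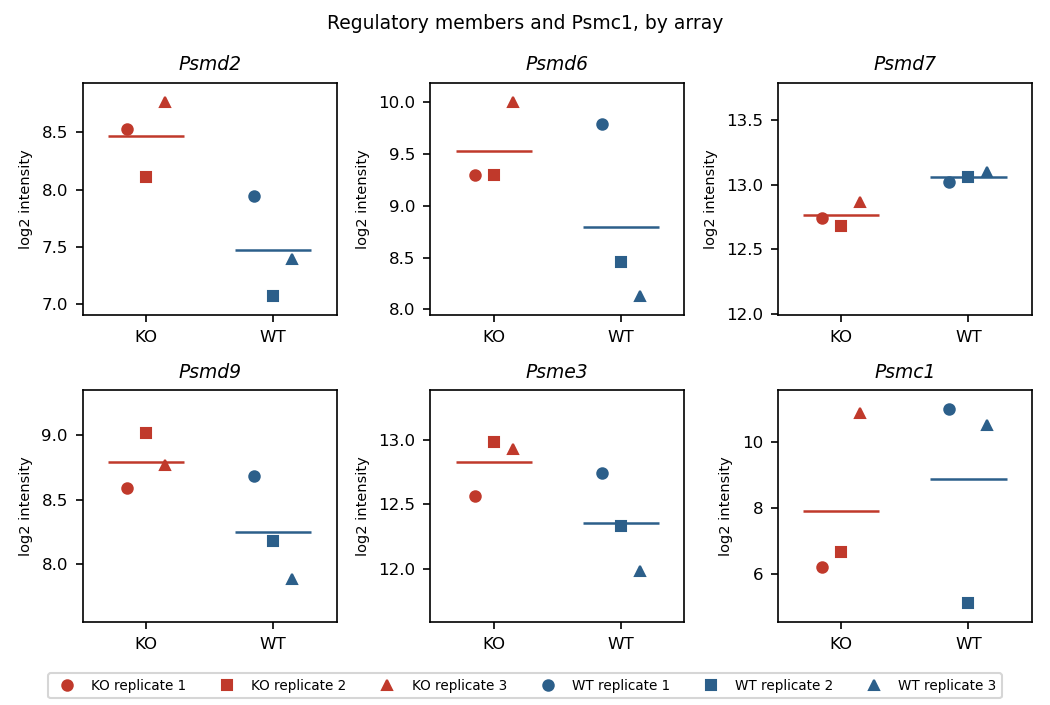
Log2 intensity (vertical axis, scaled separately in each panel) of 5 regulatory members and of Psmc1 in KO (left) and WT (right), with a symbol per replicate and a bar at the group mean. Psmd2 and Psmd7 separate the groups, WT replicate 1 lies with the KO arrays for Psmd6, Psmd9 and Psme3, and Psmc1 has high and low arrays in both groups.

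The chaperones that build the core showed no gap. Psmg1 had 11.73, 11.79 and 11.67 in the KO, against 11.93, 11.57 and 11.46 in the WT, with a difference of +0.08 (SE 0.16, adjusted p = 0.84). Psmg3 had 10.31, 10.27 and 9.78 in the KO arrays and 9.99, 10.38 and 10.25 in the WT arrays, with a difference of -0.08 (SE 0.19, adjusted p = 0.86). Psmg4 was detected on 1 KO array and no WT array and was not tested.

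Among 32 listed genes that act with the proteasome, 19 had a probe, 14 were tested and 0 passed, with 7 higher by mean and 7 lower and a median difference of +0.03. The 4 with the smallest p follow. Ubqln4, a shuttle factor, had 10.21, 10.16 and 10.46 in the KO arrays and 9.93, 9.99 and 9.84 in the WT arrays, with the groups apart and a difference of +0.36 (SE 0.14, adjusted p = 0.35). Nploc4, a cofactor of the unfoldase Vcp, had a difference of +0.36 (SE 0.19, adjusted p = 0.42). Txnl1, a thioredoxin-like protein bound to the regulatory particle, lay at -0.25 (SE 0.15, adjusted p = 0.45), and Uchl5, a deubiquitinase of the base, at +0.30 (SE 0.19, adjusted p = 0.47). Nfe2l1, the transcription factor that raises proteasome genes when the protease is inhibited, lay at -0.06, and Pomp, the maturation factor of the core, at -0.07.

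Among 20 listed genes of antigen processing and interferon signalling, 19 had a probe, 15 were tested and 0 passed, with 9 higher by mean and 6 lower and a median of +0.15. Ifngr1, a chain of the interferon gamma receptor, had 7.17, 7.33 and 7.03 in the KO arrays and 7.27, 9.40 and 9.45 in the WT arrays. The same 2 WT arrays that were high for Psmb9 were high there, and the difference was -1.53 (SE 0.54, adjusted p = 0.33). H2-K1, a class I heavy chain, had a difference of -0.38 (SE 0.21, adjusted p = 0.44), Ifngr2, the other chain of the receptor, -0.52 (SE 0.31, adjusted p = 0.45), and Irf7, a transcription factor of the interferon response, +0.33 (SE 0.20, adjusted p = 0.47). Tap1 and Tap2 above were named after their values were seen, as partners of Psmb9, as were Psma7, Psmd3, Psmd13, Nfe2l1 and Pomp.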

How the data were processed

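Transcripts were measured on 6 one-colour Illumina bead arrays, 1 per sample. Per the file headers, the deposited table gave each probe a raw intensity, a standard error over beads, a bead number and a detection p-value. The authors' processed log2 values had the same distribution in every array; their transform is not given in the sources used here. BeadStudio 3.2 and lumi are named in the submitters' processing notes, without roles.

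From the raw intensities, neqc (limma 3.58.1, R 4.3.3) removed background by a normexp model, taking its control levels from the detection p-values. Values were then given an offset of 16, quantile normalized and converted to log2. That offset compresses differences at low signal. Testing was limited to the 9403 of 24611 probes with a detection p under 0.05 on every array of 1 group or both, which cover 6864 genes at 1 probe each. limma with eBayes compared KO with WT, two-sided, with Benjamini-Hochberg adjustment over all tested probes. The script was tested on simulated data with large shifts and noise independent between probes. That test does not cover small differences or patterns shared by arrays. The number of arrays limits precision.

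Genes were named from the platform annotation, which gives 1 symbol for 20983 probes, several for 1 and none for 3627. No coordinates of probes are given. The members and gene lists were chosen with earlier results of these data known. Values by array were given for all catalytic, immunoproteasome and cap members, and for the 3 tested members with the smallest p in each other role, and 4 genes by the smallest p in each of 2 further lists. The lists of other cell types were for megakaryocytes, granulocytes, mast cells and basophils, lymphocytes, erythroid cells, monocytes and macrophages, and stromal and endothelial cells. No set test was run. Alternatives were other background steps, scaling, filters, probe rules, variance models, array weights, a replicate block, the mast cell and basophil marker mean, and arrays left out.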

Additional observations from a re-analysis of the deposited data

How the results depend on the processing

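The count of proteasome genes that passed was 0 under 16 of 18 alternatives, 8 with array weights (Psma3, Psmb5, Psmb9, Psmd2, Psmd6, Psmd9, Psmd11 and Psme3) and 3 without WT replicate 1, so that it ran from 0 to 3 with 1 array left out. The count of probes that passed was 1955 with array weights, 9 with no filter, 9 with detection p under 0.01 on all 6 arrays and 6 with the replicate block, and ran from 7 to 839 with 1 array left out, the highest without WT replicate 1. The members' median difference was +0.030 with scaling to the 75th percentile, where all tested genes had a median of -0.04, and -0.0012 without WT replicates 2 and 3, where 1 WT array is assumed to vary like the KO arrays. With 1 array left out it ran from +0.064 to +0.13. Replicate numbers did not pair the arrays: the deviations of same-numbered arrays correlated at -0.27, -0.13 and -0.09, and the block left 0 members past the threshold and the median at +0.09. Of 753 single-gene values under the alternatives, 692 kept their direction and side of the threshold, 11 passed newly and 50 changed sign without passing; the cause was not tested. Signs changed for Psma2 -0.12 and Psmc3 -0.074 with percentile scaling, for Psmb10 +0.064, Psmc1 +2.14, Psmc3 -0.094, Psmd3 +0.0043 and Psmd8 -0.041 with array weights, for Psma4 -0.027, Psmb3 -0.0074, Psmc6 -0.21, Psmd12 -0.086, Psmd5 -0.013, Psmf1 +0.14, Psmg1 -0.13 and Psmg3 +0.051 with the marker mean, and for Psma4 -0.091, Psmb3 -0.019, Psmb5 -0.0023, Psmb6 -0.015, Psmb9 +0.031, Psmc4 +0.072, Psmc5 -0.00012, Psmc6 -0.38, Psmd11 -0.037, Psmd12 -0.17, Psmd5 -0.048, Psmd6 -0.26, Psmf1 +0.24, Psmg1 -0.20 and Psmg3 +0.13 without WT replicates 2 and 3. With 1 array left out the ranges that crossed 0 were Psma2 -0.059 to +0.071, Psmb10 -0.094 to +0.013, Psmb3 -0.036 to +0.26, Psmc1 -2.84 to +0.10, Psmc3 -0.051 to +0.099, Psmc6 -0.18 to +0.31, Psmd3 -0.074 to +0.013, Psmd5 -0.078 to +0.094, Psmd8 -0.10 to +0.13, Psme1 -0.055 to +0.22, Psmg1 -0.017 to +0.21 and Psmg3 -0.19 to +0.087. Dim probes such as those of Psma5 and Psmd11 lie near background, where the offset and the background step limit what a difference can show. Their main differences were +0.29 and +0.26. These fell to +0.15 and +0.15 with an offset of 50 and no control levels, and to +0.11 and +0.11 without background correction. On the authors' processed values they were +0.06 and +0.07.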
